A study of Mus musculus with 3 samples.

Results

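The genes described here are the mitochondrial carriers of the Slc25 family and the subunits of the mitochondrial protein import machinery. They were chosen by symbol: genes named Slc25a followed by a digit, and genes named Timm or Tomm followed by a digit. Earlier results of these data were known when this choice was made. This gave 61 of the 12852 genes with values, 41 carriers and 20 import genes. They were measured by RNA sequencing in B16F10, a pigmented mouse melanoma line. The comparison is between 2 libraries from cells in which Med23, a subunit of the transcriptional coactivator Mediator, was knocked down with siRNA (siMed23) and 1 library, titled siCtrl and labelled wild type, from control cells (Ctrl). The labels give no time after transfection. Separate cultures or separate siRNAs are not stated for the siMed23 pair, and the p-values below measure only the spread between these libraries, which may be technical. Which of the 2 carries the label siMed23A could not be read from the table, so they are called the first and the second library by their place in it. The design text states the comparison as Med23 knockdown against wild type, and the title of the series ties it to pigmentation and DNA repair, with no stated question about mitochondria.

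Most mitochondrial proteins are encoded in the nucleus and made in the cytosol. The translocase of the outer membrane (TOM) receives nearly all of them. Translocases of the inner membrane (TIM) then pass them to the matrix or insert them in the inner membrane, and small TIM chaperones escort membrane proteins through the space between. The Slc25 carriers are themselves cargo of this route. They sit mostly in the inner membrane and exchange nucleotides, phosphate, organic acids, amino acids, iron and cofactors between cytosol and matrix. A few genes caught by the naming rule lie elsewhere: Slc25a17 encodes a peroxisomal carrier, Slc25a46 a protein of the outer membrane that acts in mitochondrial shape, and Tomm34 a cytosolic co-chaperone.

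Values are RPKM, reads per unit of transcript length and of library size, as deposited, and they can be compared between genes because they are per length. Their distribution had been made equal across the 3 libraries, so they hold no read depth and cannot show a change in total RNA. The number of mitochondria per cell is not measured by them. Med23 was at 1.65 and 1.61 RPKM in the siMed23 libraries, against 5.23 RPKM in Ctrl, so it fell by 1.24 on the log2 scale (SE 0.11, limma adjusted p = 0.00121). All 7 markers of the melanocytic line were present, and all 7 were called lower, where 24.0% of all tested genes were. Their log2 ratios ran from -2.95 to -0.54. Of 14 markers of leukocytes, epithelium, fibroblasts and endothelium 1 had a row, Col1a1, at 0.200 and 0.405 RPKM in siMed23 and 0.189 RPKM in Ctrl. Log2 ratios throughout are siMed23 over Ctrl on the log2(RPKM + 1) scale, which understates the change of low genes. Calls are from limma fitted to the 9722 genes whose mean reached 1 RPKM, with Benjamini-Hochberg adjustment over all of them and a threshold of 0.05. The lone control is assumed to vary like a knockdown library.

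Of the 33 carriers tested, 9 rose, 9 fell and 15 did not pass. Over all tested genes 26.3% were called higher and 24.0% lower, so the carriers moved in each direction about as often as all genes did, of which 50.3% were called. Of the 19 import genes that were tested, 9 rose and 2 fell, with 8 not past the threshold. That balance did not hold under a correction of each library for transcript length and GC content, which gave 1 import gene higher and 3 lower of 18 with each gene's longest transcript (26.4% of genes higher, 25.7% lower). With the median transcript it gave 7 higher and 5 lower (27.0% and 26.3%). The difference between import genes and all genes was not tested. The median log2 ratio was 0.084 for carriers, 0.26 for import genes and 0.014 for all tested genes. The larger changes were few. At least 2-fold in both siMed23 libraries there were 3 carriers higher and 0 lower, and no import gene, where 4.97% of all tested genes were higher and 4.76% lower. At 1.5-fold in both libraries there were 4 carriers higher and 3 lower with 1 import gene each way, against 14.6% of tested genes higher and 13.5% lower. If the control is allowed an SD 2 times that of a siMed23 library, 1 carrier and 2 import genes were called higher (8.33% of all genes), and 2 carriers and 1 import gene lower (7.03%). These were Slc25a25, Timm8b and Timm9 among the rises and Slc25a13, Slc25a39 and Tomm70a among the falls. At 3 times, 0 members were called (1.21% of genes higher, 0.792% lower), so the calls below depend on that assumption.

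**Figure D1:**
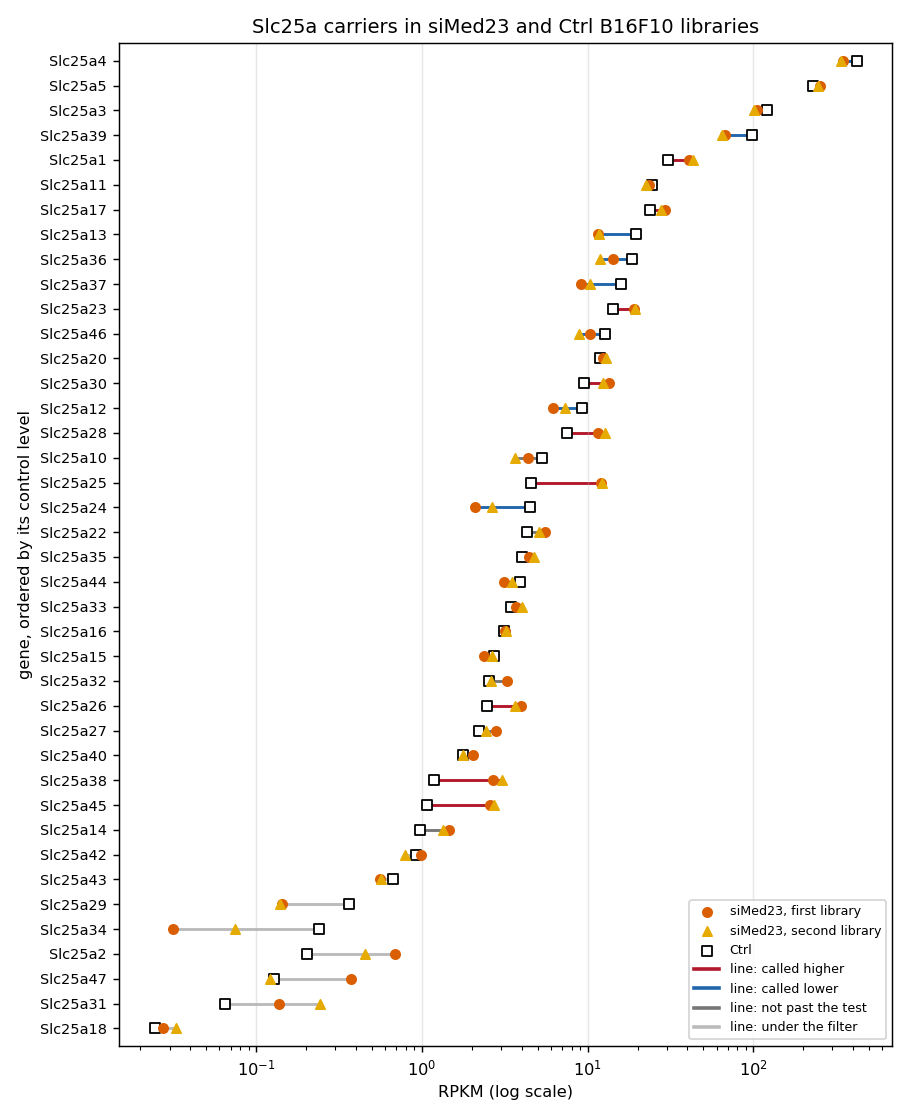
RPKM (log axis) of the Slc25a carriers named here in the first and second siMed23 library (filled circle and triangle) and in Ctrl (open square), 1 gene per row, ordered by Ctrl level; the line joins the lowest and highest value and its colour gives the limma call. Slc25a25 is set farthest to the right of its control among the called genes, at 12.0 and 12.2 against 4.55 RPKM, and both siMed23 values of Slc25a24 and Slc25a13 lie left of theirs.

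The carriers spanned a wide range of levels, and a handful made up most of the total. Summed over all 41, they came to 1038 and 1014 RPKM in siMed23 and 1124 RPKM in Ctrl. Slc25a4, Slc25a5 and Slc25a3, which supply the ATP synthase with ADP and phosphate, accounted for 67.7% and 67.2% of that sum in siMed23 and 68.8% in Ctrl. Slc25a4 (ENSMUSG00000031633), an ADP/ATP exchanger, was at 347 and 336 RPKM in siMed23, against 424 RPKM in Ctrl. It fell by 0.31 on the log2 scale (SE 0.04, limma adjusted p = 0.00394), a small change that both libraries showed. Slc25a5, its close relative, was at 251 and 245 RPKM in siMed23 and 229 RPKM in Ctrl. Both libraries were above the control, but the difference did not pass (limma adjusted p = 0.0897 at a log2 ratio of 0.11), and 2 near-identical pseudogenes make this level uncertain. Slc25a4 therefore stood at 1.38 and 1.37 times Slc25a5 in siMed23 and at 1.85 times in Ctrl. Slc25a3, the phosphate carrier, was at 105 and 101 RPKM in siMed23, against 120.3 RPKM in Ctrl, and fell (log2 ratio -0.23, limma adjusted p = 0.0248; 0.101 without an intensity trend). Slc25a31, an ADP/ATP carrier known from testis, was near the bottom of the table at 0.138 and 0.241 RPKM in siMed23 and 0.0652 RPKM in Ctrl, under the filter.

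The 3 calcium-regulated carriers of ATP-Mg and phosphate, Slc25a23, Slc25a24 and Slc25a25, did not move together. Slc25a25 (ENSMUSG00000026819) was at 12.0 and 12.2 RPKM in siMed23, against 4.55 RPKM in Ctrl, 2.66 times as much. The log2 ratio was 1.24 (SE 0.10, limma adjusted p = 0.000818), and it had the largest rise of all tested members. Slc25a23 was at 19.1 and 19.2 RPKM in siMed23 and 14.3 RPKM in Ctrl, a rise of 0.40 on the log2 scale (limma adjusted p = 0.0134, SE 0.08). Corrected with the median transcript, Slc25a23 had 0.19 and did not pass (limma adjusted p = 0.0913). Slc25a24 went the other way, with 2.09 and 2.65 RPKM in siMed23 and 4.50 RPKM in Ctrl. Its fall of -0.71 (SE 0.14, limma adjusted p = 0.0115) was the lowest log2 ratio among the carriers, although its siMed23 libraries differed more from each other than those of any other tested member, by a ratio of 1.27. Slc25a25 and Slc25a24 were level in Ctrl, with a ratio of 1.01, whereas in siMed23 Slc25a25 stood at 5.75 and 4.59 times Slc25a24.

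Among amino acid carriers, both aspartate/glutamate exchangers of the malate-aspartate shuttle fell. Slc25a13, known as citrin, was at 11.5 and 11.7 RPKM in siMed23, against 19.5 RPKM in Ctrl, and fell by 0.70 on the log2 scale (SE 0.09, limma adjusted p = 0.00296). Slc25a12, known as aralar, was at 6.17 and 7.33 RPKM in siMed23 and 9.25 RPKM in Ctrl, and fell by 0.41 (SE 0.13, limma adjusted p = 0.0452). That call was lost without the low-value filter (limma adjusted p = 0.0721), without an intensity trend (0.0534) and after the length and GC correction with the longest (0.293) or the median transcript (0.580). The oxoglutarate carrier of the same shuttle, Slc25a11, was at 23.3 and 22.6 RPKM in siMed23 and 24.6 RPKM in Ctrl and did not pass, but was called lower after either length and GC correction (limma adjusted p = 0.0173 in both). Slc25a38, which brings glycine into mitochondria for haem synthesis, was at 2.70 and 3.05 RPKM in siMed23, against 1.18 RPKM in Ctrl. It rose by 0.83 on the log2 scale (SE 0.12, limma adjusted p = 0.00453). Slc25a22, a glutamate carrier, Slc25a15, an ornithine carrier, and Slc25a44, a carrier of branched-chain amino acids, did not pass, with log2 ratios of 0.25, -0.088 and -0.19. Slc25a18, Slc25a2 and Slc25a29 were under 1 RPKM in every library.

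The iron carriers changed in opposite directions. Of the 2 mitoferrins, which import iron, Slc25a37 was at 9.15 and 10.4 RPKM in siMed23 and 15.8 RPKM in Ctrl. Slc25a28 was at 11.6 and 12.8 RPKM in siMed23, against 7.50 RPKM in Ctrl. Slc25a37 fell (log2 ratio -0.65, SE 0.11, limma adjusted p = 0.00703) and Slc25a28 rose (log2 ratio 0.63, SE 0.11, limma adjusted p = 0.00675; 0.38 and 0.39 on the log2 scale after the length and GC corrections, still called). Their order of level turned round, since Slc25a37 stood at 0.792 and 0.813 times Slc25a28 in siMed23 and at 2.11 times in Ctrl. Slc25a39, which imports glutathione, was the fourth most abundant carrier, with 67.2 and 65.0 RPKM in siMed23 and 98.5 RPKM in Ctrl. It fell by 0.57 on the log2 scale (SE 0.06, limma adjusted p = 0.00202). Its relative Slc25a40, at 2.05 and 1.77 RPKM in siMed23 and 1.76 RPKM in Ctrl, did not pass, and neither did Slc25a20, the carnitine/acylcarnitine carrier, with a log2 ratio of 0.084.

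Of the 4 organic acid carriers tested, 1 rose, where 26.3% of all tested genes did. Slc25a1, which exports citrate for fatty acid and sterol synthesis, was at 40.9 and 43.3 RPKM in siMed23 and 30.4 RPKM in Ctrl, a rise of 0.46 on the log2 scale (SE 0.08, limma adjusted p = 0.00669). Slc25a10, the dicarboxylate carrier, was at 4.40 and 3.64 RPKM in siMed23 and 5.33 RPKM in Ctrl, below the control in both libraries without passing (limma adjusted p = 0.0859). It was called lower when corrected with the longest (limma adjusted p = 0.0116) or the median transcript (0.0181), while the rise of Slc25a1 came to 0.23 and 0.28. Slc25a35 was at 4.43 and 4.73 RPKM in siMed23 and 4.01 RPKM in Ctrl, and its relative Slc25a34 was under the filter at 0.0314 and 0.0741 RPKM in siMed23 and 0.239 RPKM in Ctrl.

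Carriers of cofactors and nucleotides were called in 3 of 7 cases, where 50.3% of all tested genes were called. Slc25a26, which imports S-adenosylmethionine, was at 3.94 and 3.64 RPKM in siMed23 and 2.46 RPKM in Ctrl and rose (log2 ratio 0.47, limma adjusted p = 0.0210). Slc25a17, the peroxisomal carrier, was at 29.3 and 27.9 RPKM in siMed23 and 23.7 RPKM in Ctrl, a rise of 0.26 (limma adjusted p = 0.0434) that did not pass without the low-value filter (limma adjusted p = 0.0503), without an intensity trend (0.0764) or after correction by the longest transcript (0.336). Slc25a36, a pyrimidine nucleotide carrier, was at 14.3 and 11.9 RPKM in siMed23 and 18.6 RPKM in Ctrl and fell (log2 ratio -0.48, limma adjusted p = 0.0261). Corrected with the longest transcript it had -0.21 (limma adjusted p = 0.0843) and with the median transcript -0.19 (0.0984), so the call was lost in both. Its relative Slc25a33, with Slc25a16 and Slc25a32, carriers linked to coenzyme A and to folate or FAD transport, had log2 ratios between 0.024 and 0.15 and did not pass.

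The 3 relatives of the uncoupling proteins were above the control in both libraries, as were 46.6% of all tested genes. Slc25a30 was at 13.4 and 12.4 RPKM in siMed23 and 9.50 RPKM in Ctrl, a rise of 0.40 (SE 0.10, limma adjusted p = 0.0220), while Slc25a27 and Slc25a14 did not pass, with log2 ratios of 0.16 and 0.28. Slc25a14 was at 0.975 RPKM in Ctrl and met the filter only through the siMed23 libraries. Slc25a45, grouped here with carriers of no assigned substrate, was at 2.57 and 2.73 RPKM in siMed23, against 1.07 RPKM in Ctrl. It rose by 0.81 on the log2 scale (SE 0.11, limma adjusted p = 0.00400), 2.47 times as high in RPKM. Slc25a46 was at 10.3 and 8.89 RPKM in siMed23 and 12.8 RPKM in Ctrl, a fall near the threshold (log2 ratio -0.38, limma adjusted p = 0.0461; 0.0688 without the low-value filter, 0.166 and 0.488 after the length and GC corrections). In all, 8 carriers were under the filter. Of these Slc25a42, Slc25a43 and Slc25a47 stood between 0.121 and 0.981 RPKM over the 3 libraries.

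**Figure D2:**
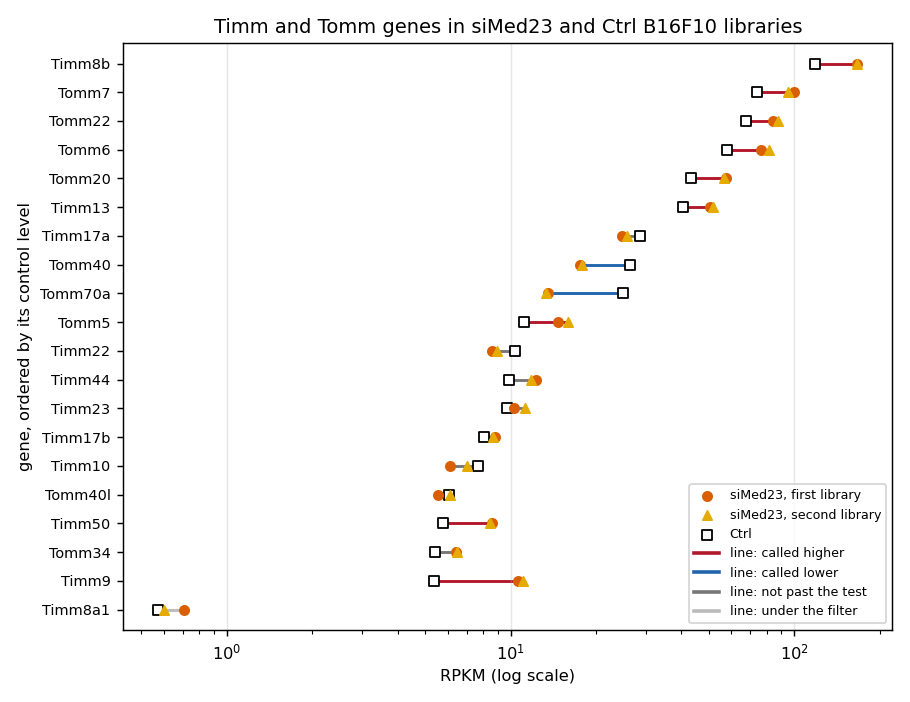
RPKM (log axis) of the 20 Timm and Tomm genes, drawn as for the carriers. Timm8b, Tomm7, Tomm22, Tomm6, Tomm20 and Timm13, the 6 most abundant in Ctrl, all lie above Ctrl in both siMed23 libraries, and Tomm40 and Tomm70a lie below it.

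The import genes together came to 683 and 693 RPKM in siMed23 and 562 RPKM in Ctrl. Within the TOM complex, the small subunits rose and the channel fell. Tomm7 was at 100.01 and 95.1 RPKM in siMed23, against 73.9 RPKM in Ctrl. Tomm6 was at 76.6 and 81.4 RPKM in siMed23 and 57.9 RPKM in Ctrl, and Tomm5 at 14.7 and 15.95 RPKM in siMed23 and 11.1 RPKM in Ctrl. These 3, which hold the complex together around its channel, all rose, Tomm7 by 0.40 (limma adjusted p = 0.00574), Tomm6 by 0.44 (0.00532) and Tomm5 by 0.43 (0.0168) on the log2 scale. Corrected with the longest transcript, none of these 3 passed, at 0.11, 0.079 and 0.068. Tomm40, the channel itself, was at 17.6 and 17.8 RPKM in siMed23, against 26.3 RPKM in Ctrl. It fell by 0.54 on the log2 scale (SE 0.08, limma adjusted p = 0.00480). Its relative Tomm40l, at 5.55 and 6.12 RPKM in siMed23 and 6.06 RPKM in Ctrl, lay on both sides of the control.

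Receptors of the outer membrane moved both ways. Tomm22 was at 84.3 and 87.9 RPKM in siMed23 and 67.7 RPKM in Ctrl, and Tomm20, the receptor for presequences, at 57.4 and 56.7 RPKM in siMed23 and 43.2 RPKM in Ctrl. Tomm22 rose by 0.34 on the log2 scale (limma adjusted p = 0.00884) and Tomm20 by 0.39 (0.00666). Corrected with the longest transcript Tomm22 had 0.15 and did not pass (limma adjusted p = 0.121). With the median transcript Tomm22 had 0.25 and was still called (limma adjusted p = 0.0191). Tomm20 has no length in the annotation and could not be corrected. Tomm70a (ENSMUSG00000022752), the receptor that takes up carrier precursors with their chaperones, was at 13.5 and 13.4 RPKM in siMed23, against 24.9 RPKM in Ctrl. At -0.84 (SE 0.09, limma adjusted p = 0.00165) it had the lowest log2 ratio of all tested members. Tomm20 thus stood at 4.25 and 4.24 times Tomm70a in siMed23 and at 1.74 times in Ctrl. Tomm34 did not pass, with a log2 ratio of 0.22.

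Of the small chaperones between the membranes, 3 of 4 tested rose, where 26.3% of all genes did. After correction with the longest transcript 1 of the 4 was higher and 1 lower (26.4% and 25.7% of all genes). With the median transcript 2 were higher and 1 lower (27.0% and 26.3%). Timm8b, the most abundant import gene, was at 166 and 167 RPKM in siMed23, against 119 RPKM in Ctrl (log2 ratio 0.49, SE 0.05, limma adjusted p = 0.00174). Timm13, its partner in a chaperone complex, was at 50.4 and 51.7 RPKM in siMed23 and 40.6 RPKM in Ctrl (log2 ratio 0.32, SE 0.07, limma adjusted p = 0.0132). Timm13 lost its call under both corrections, with 0.036 (limma adjusted p = 0.688) by the longest and 0.063 (0.480) by the median transcript. Timm9 (ENSMUSG00000021079) was at 10.6 and 11.1 RPKM in siMed23 and 5.38 RPKM in Ctrl, the largest rise of the import genes (log2 ratio 0.89, SE 0.10, limma adjusted p = 0.00209). Timm10, with which Timm9 forms the chaperone for carrier precursors, was at 6.12 and 7.03 RPKM in siMed23 and 7.71 RPKM in Ctrl and did not pass (limma adjusted p = 0.207). In siMed23 Timm9 stood at 1.74 and 1.58 times Timm10, and in Ctrl at 0.697 times. Timm8a1 was under the filter, at 0.709 and 0.603 RPKM in siMed23 and 0.573 RPKM in Ctrl.

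Of the 6 subunits of the inner membrane translocases, 1 passed the test, where 50.3% of all tested genes did. Timm50, the receptor of the presequence translocase, was at 8.601 and 8.46 RPKM in siMed23 and 5.76 RPKM in Ctrl, and rose by 0.49 on the log2 scale (SE 0.10, limma adjusted p = 0.0116). Timm23, the core of that translocase, was at 10.3 and 11.3 RPKM in siMed23 and 9.71 RPKM in Ctrl, with 5 near-identical copies that make its level uncertain. Timm44, which tethers the import motor, and Timm17b had log2 ratios of 0.26 and 0.10, whereas Timm17a had -0.18 and Timm22, the core of the carrier translocase, had -0.21. None of these passed.

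Transcript length moved with these changes. The median longest protein-coding transcript of the tested import genes was 1608 bases, that of the carriers 2784 bases and that of all tested genes 3085 bases. Across genes, Spearman's correlation of the log2 ratio with length was -0.486 over 18 import genes, -0.281 over 33 carriers and -0.383 over 9614 tested genes, all from the same 3 libraries. The correction given above was a loess fit of each library on that length and GC content. With the longest transcript the import rise that passed was that of Timm9, with a log2 ratio of 0.87, and the falls were those of Tomm70a, Tomm40 and Timm10, with -0.52, -0.78 and -0.58. Timm8b, Tomm5, Tomm6, Tomm7 and Timm13 came down to log2 ratios between 0.036 and 0.11 and lost their calls, as did Tomm22 at 0.15 and Timm50 at 0.25. The outcome depended on which transcript gave the length. With the median over a gene's protein-coding transcripts, Timm8b, Tomm5, Tomm6, Tomm7, Tomm22, Timm50 and Timm9 were called higher, and Timm10, Timm17a, Timm22, Tomm40 and Tomm70a lower. Of the 33 carriers 9 were higher and 8 lower by the longest transcript (26.4% and 25.7% of all genes). By the median transcript 8 were higher and 8 lower (27.0% and 26.3%), but not all were the same genes. Slc25a12, Slc25a36 and Slc25a46 lost their falls in both, and Slc25a10 and Slc25a11 were newly called lower in both. Slc25a32 was called higher with the longest transcript alone (log2 ratio 0.45, limma adjusted p = 0.0124). The falls of Slc25a4 and Slc25a3 were larger with the longest transcript, at -0.47 and -0.42. Slc25a25 had a log2 ratio of 1.24 after the first correction and 1.22 after the second. Tomm20 has no length in the annotation used and is left out of these counts. For the same reason Tomm20 could not be checked for near-identical copies or overlapping exons.

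**Figure D3:**
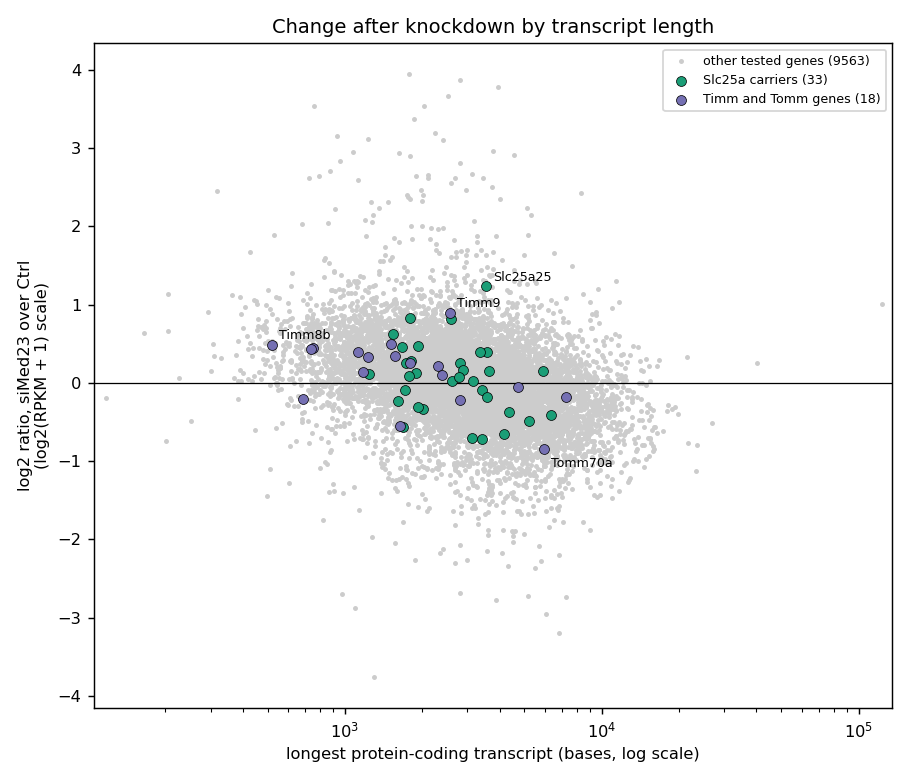
Log2 ratio of siMed23 over Ctrl against the longest protein-coding transcript in bases (log axis), for the carriers (green), the import genes (purple) and the other tested genes (grey) with a known length. Short genes lie more often above 0 and long genes below it, with Timm8b high on the left and Tomm70a low on the right, while Timm10 and Tomm40 are shorter than the median of all genes and lie below 0.

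**Figure D4:**
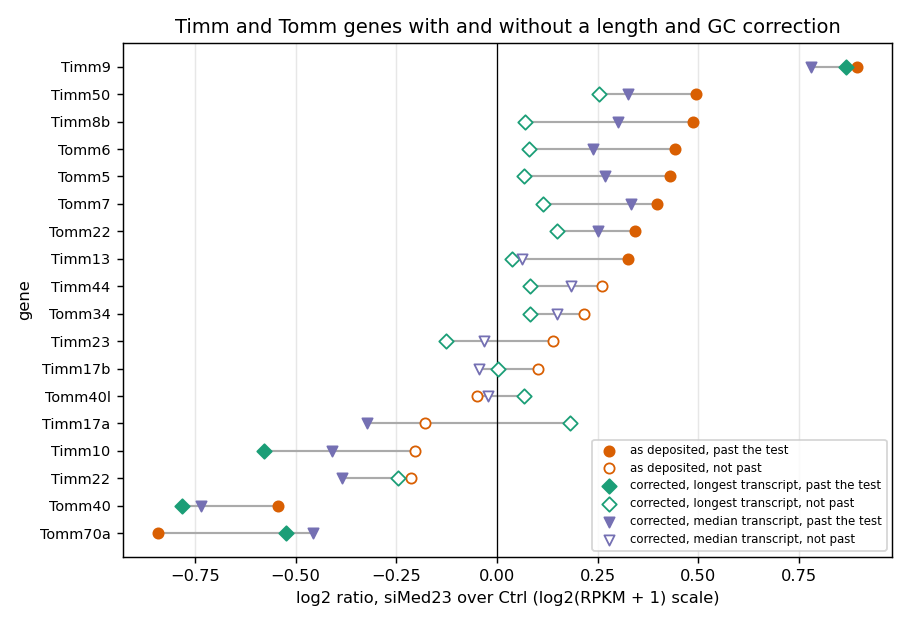
Log2 ratio of siMed23 over Ctrl for 18 import genes as deposited (circles) and after correction for GC content with the longest (diamonds) or the median (triangles) protein-coding transcript length, filled where limma's adjusted p passed. Timm9 and, on the lower side, Tomm40 and Tomm70a are filled in all 3, and the 7 other rises are open with the longest transcript, Timm50 highest among them at 0.25.

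Genes that work with these members were taken from lists of known partners. Among import partners outside the Timm and Tomm names, 9 of 26 tested rose, 8 fell and 9 did not pass, beside 26.3% of all genes higher and 24.0% lower. Corrected with the longest transcript they came to 6 higher and 9 lower (26.4% and 25.7% of all genes). With the median transcript they came to 8 and 9 (27.0% and 26.3%). Hspa9, the heat shock protein that drives the import motor, was at 245 and 251 RPKM in siMed23, against 520.1 RPKM in Ctrl (log2 ratio -1.07, limma adjusted p = 0.000200). Lonp1, a matrix protease, and Samm50, which inserts barrel proteins in the outer membrane, also fell, by log2 ratios of -0.98 and -0.83. Oxa1l, an insertase of the inner membrane, Immp2l, a peptidase subunit of the same membrane, and Hspe1, the co-chaperonin of the matrix, rose by 0.83, 0.78 and 0.71. With the longest transcript Immp2l had 0.50 and Hspe1 0.36, both still called. Immp2l met the filter only through the siMed23 libraries. Of 12 other carriers and channels tested, 5 rose, 3 fell and 4 did not pass, where 50.3% of all genes were called. Corrected with the longest transcript, 3 were higher and 3 lower (26.4% and 25.7% of all genes). Both subunits of the pyruvate carrier rose, Brp44 by 0.64 and Brp44l by 0.60, as did the sideroflexin Sfxn3 by 0.84. With the longest transcript Brp44 had 0.34 and Brp44l 0.30, and Brp44l did not pass (limma adjusted p = 0.0591). Sfxn1, a serine transporter, fell by 0.56 on the log2 scale, Cbara1, a regulator of calcium uptake, by 0.48, and Vdac1, the outer membrane porin, by 0.47. Of 11 regulators of mitochondrial gene expression tested, 1 rose and 2 fell, where 26.3% of all genes rose and 24.0% fell. Ppargc1a, a coactivator of mitochondrial genes, was at 4.17 and 3.29 RPKM in siMed23 and 6.61 RPKM in Ctrl (log2 ratio -0.69, limma adjusted p = 0.0136). Myc was at 20.0 and 22.9 RPKM in siMed23 and 8.90 RPKM in Ctrl (log2 ratio 1.18, limma adjusted p = 0.00136), and Yy1 fell by 0.30 on the log2 scale. The call of Yy1 was lost under both corrections, at -0.11 (limma adjusted p = 0.238) and -0.041 (0.661). Ppargc1a was still called lower, at -0.36 (limma adjusted p = 0.0273) with the longest transcript and -0.61 (0.00799) with the median transcript. Nrf1, Gabpa, Gabpb1 and Tfam did not pass.

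Promoters are shown for members with large changes, so that the letters before their starts can be read beside their values. RefSeq sequences of the GRCm38.p6 build were matched by symbol for 50 of the 61 members. In the 250 bases before each start, on both strands, 6 motifs were searched. CACGTG is called the E-box here, CATGTG is another form of it, and Mitf can bind either. The others were CCGGAAG (ETS family, to which the Med23 partner Elk1 belongs), TGACGTCA (cAMP response element), the 10-letter NRF1 motif and AAGATGGCG (YY1). None of the 6 contains another. Capitals mark matches. Those shown are 2 carriers and 1 import gene that rose and 1 of each that fell, and they were picked among windows that hold a match. Slc25a45, which rose about as much as Slc25a38, and Slc25a24, the carrier with the lowest log2 ratio, have windows with 0 matches and are not shown. Slc25a25 has 3 starts in RefSeq and the window shown is the one with a match. The windows are chr2:32424067-32424316 on the minus strand for Slc25a25, chr9:120110132-120110381 on the plus strand for Slc25a38, chr6:6217174-6217423 on the minus strand for Slc25a13, chr12:71136676-71136925 on the minus strand for Timm9 and chr16:57121464-57121713 on the plus strand for Tomm70a.
Slc25a25: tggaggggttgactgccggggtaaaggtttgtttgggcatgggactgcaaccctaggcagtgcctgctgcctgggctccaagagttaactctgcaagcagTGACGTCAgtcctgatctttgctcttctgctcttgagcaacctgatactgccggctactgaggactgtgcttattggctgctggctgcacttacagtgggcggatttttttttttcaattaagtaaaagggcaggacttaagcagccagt
Slc25a38: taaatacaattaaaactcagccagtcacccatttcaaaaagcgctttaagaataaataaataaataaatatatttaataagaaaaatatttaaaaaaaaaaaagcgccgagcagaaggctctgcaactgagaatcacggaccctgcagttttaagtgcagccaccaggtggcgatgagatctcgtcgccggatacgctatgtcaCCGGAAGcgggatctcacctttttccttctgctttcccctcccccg
Slc25a13: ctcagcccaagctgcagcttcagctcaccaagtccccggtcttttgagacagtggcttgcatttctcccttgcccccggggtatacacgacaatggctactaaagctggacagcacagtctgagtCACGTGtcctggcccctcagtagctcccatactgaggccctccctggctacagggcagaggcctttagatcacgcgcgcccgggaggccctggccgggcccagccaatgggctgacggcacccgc
Timm9: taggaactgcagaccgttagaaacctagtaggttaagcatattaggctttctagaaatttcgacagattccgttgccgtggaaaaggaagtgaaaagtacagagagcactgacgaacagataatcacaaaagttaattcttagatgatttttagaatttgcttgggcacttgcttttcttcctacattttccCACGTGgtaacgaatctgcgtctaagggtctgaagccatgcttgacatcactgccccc
Tomm70a: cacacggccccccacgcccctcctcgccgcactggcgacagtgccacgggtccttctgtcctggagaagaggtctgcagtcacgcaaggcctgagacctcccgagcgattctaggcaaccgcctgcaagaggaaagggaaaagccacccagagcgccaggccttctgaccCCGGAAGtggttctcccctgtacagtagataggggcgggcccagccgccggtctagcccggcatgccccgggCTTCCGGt

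Slc25a25 holds a cAMP response element starting 150 bases before the start, Slc25a38 an ETS motif at 46 bases, Slc25a13 an E-box at 125 bases and Timm9 an E-box at 58 bases. Tomm70a holds 2 ETS motifs, at 80 and 8 bases. Since these windows were picked for a match and a change, no conclusion is drawn from which motif stands before which gene. By call, CACGTG was in 1 of 8 matched carriers that rose, 2 of 7 that fell and 3 of 10 that did not pass. For import genes these were 2 of 8, 0 of 2 and 0 of 7. CCGGAAG was in 2 of 8, 2 of 7 and 1 of 10 carriers, and in 2 of 8, 1 of 2 and 3 of 7 import genes. CACGTG was found in 7 of 32 matched carriers and 3 of 18 import genes, where 10.1% of the 8952 matched genes of the table held it. CCGGAAG was found in 5 carriers and 6 import genes, against 15.5% of all, and TGACGTCA in 2 carriers and 0 import genes, against 3.04%. CATGTG was found in 3 carriers and 0 import genes, against 8.94% of all. The NRF1 and YY1 letters were in 0 member windows, against 1.90% and 1.35% of all. These counts describe letters in a window and were not tested.

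Between the siMed23 libraries, the ratio of second over first ran from 0.795 to 1.27 for carriers and from 0.951 to 1.15 for import genes. Both libraries were on the same side of Ctrl for 50 of the 52. Of the carriers 19 were above Ctrl in both and 13 below, and of the import genes 13 were above and 5 below, where 46.6% of all tested genes were above and 44.2% below. Exons of 21 members overlap another gene in the annotation. For 19 of them a gene on the opposite strand overlaps, among them Slc25a25 with Naif1, Timm9 with Tomm20l and Tomm70a with Nit2. Whether reads were counted by strand is not given in the sources used here, so reads of such neighbours cannot be told apart. On the same strand Tomm6 overlaps Gm21981, Timm23 overlaps Gm23946 and Slc25a47 overlaps Mir345.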

How the data were processed

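Total RNA from B16F10 cells was sequenced in 3 libraries, 2 siMed23 and 1 Ctrl. The deposited values are RPKM, computed by the authors, made with tools of which TopHat, Cufflinks and CASAVA 1.4 are listed, beside mm9 as the build, per the submitters' processing notes; their roles are not given. Once each column was sorted, 95.3% of positions held the same value in all 3 (tolerance 1e-09, relative), so the distributions had been made equal before deposit. Depth is unknown, and no counting interval could be given. All value columns were used (0 left out).

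RPKM were analysed as log2(RPKM + 1) with limma 3.58.1 in R 4.3.3 (lmFit, eBayes with an intensity trend), over genes whose mean reached 1 RPKM, with 1 residual degree of freedom and a prior of 4.37. The fit was tested on simulated data in which the control varied like a knockdown library, so that test does not bear on this assumption. No read counts were available, so no count test was run. Transcript length and GC content came from GENCODE M21, matched by ID for 98.1% of genes. That annotation is GRCm38, so none of its coordinates are given. Near-identical copies were transcripts of other genes with at least 95% identity over at least 50% of the longest transcript (BLAST 2.17.0). Named genes were Med23, up to 8 called rises and 8 called falls of carriers and of import genes by the smaller change of the 2 libraries, up to 3 each way of every other list, and the remaining members by role. Members, lists and settings were chosen with earlier results of these data known. A single carrier stays in the counts and sums but is not reported by name.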

Additional observations from a re-analysis of the deposited data

How the results depend on the processing

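No paired analysis was possible because there is only 1 control library. The assumption about the control mattered most. At an SD 2 times that of a siMed23 library, carriers called higher came to 1 and lower to 2, import genes higher to 2 and lower to 1, and all genes to 810 higher and 683 lower. At 3 times there were 0, 0, 0 and 0 members, 118 genes higher and 77 lower, and Med23 (log2 ratio -1.24) had a limma adjusted p = 0.108. Correction for length and GC content gave 1 import gene higher and 3 lower with the longest transcript (26.4% and 25.7% of all genes). The correction with the median transcript, chosen after seeing the data, gave 7 and 5 (27.0% and 26.3%). Named members that changed sign there had not passed: with the longest transcript Slc25a20 (-0.087), Slc25a33 (-0.043), Slc25a5 (-0.14), Timm17a (0.18), Timm23 (-0.13) and Tomm40l (0.066), with the median transcript Slc25a15 (0.067), Timm17b (-0.046) and Timm23 (-0.032). A minimum of 5 RPKM left 1494 genes called lower, as fewer were tested. Carriers 2-fold higher in both libraries came to 1 on the RPKM + 1 scale. A limit of 1.5-fold gave 3 carriers lower, 1 import gene higher and 1 lower. Using 1 siMed23 library alone, carriers 2-fold higher were 3 in either case, carriers lower 0 to 1, import genes higher 0 to 1 and lower 0, and Med23 was -1.23 to -1.25. Of the 29 called members, 16 stayed past the threshold in the same direction in all settings other than a larger control SD. A pseudocount of 0.1, a second quantile normalization, equal medians and a trimmed mean of log ratios (added after seeing the data; the planned count-based version was not run on RPKM) changed the call of 0 of 52 members. Slc25a12, Slc25a46 and Slc25a17 lost their calls with no filter (limma adjusted p = 0.0721, 0.0688 and 0.0503) and with no intensity trend (0.0534, 0.0588 and 0.0764), among other settings.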
